A study of Mus musculus with 4 samples.

Results

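The genes described here are 32 members of the pathways by which cells make and release cholesterol and make fatty acids, out of 20659 mouse genes named on the array. They were taken by symbol: 17 enzymes of sterol synthesis, 5 regulators and partners of the sterol-sensing SREBP pathway, 5 genes of LXR signalling and cholesterol efflux, and 5 genes of fatty acid synthesis. All 32 had a probe and all 32 passed the filter on dim probes, which kept a probe when 2 or more of the 4 arrays, of either genotype, read well above background. Lss and Dhcr7 were not well above background on WT replicate 1, and the other 30 were on every array.

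The arrays profiled heart RNA of male mice. A myocardial infarction had been made 5 days earlier by tying off the left anterior descending coronary artery. Both genotypes had the operation. Wild-type mice (WT) were set against VE-Cad-Cre-S1pr1 fl/fl mice (KO), in which Cre under the VE-cadherin promoter is meant to delete S1pr1, a receptor for sphingosine 1-phosphate, in endothelial cells. Each genotype had 2 arrays, numbered 1 and 3 for WT and 3 and 4 for KO in the labels. Age, and whether the WT mice carried floxed alleles or Cre, are not given in the sources used here. Whether every array comes from its own heart is not stated, so the p-values below reflect only how far these samples lie apart, which may be technical. Precision is limited by having so few arrays.

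Cholesterol is built from acetyl-CoA through mevalonate, squalene and lanosterol. When sterol in the endoplasmic reticulum is low, the escort protein SCAP carries the SREBP transcription factors to the Golgi, where they are cleaved and then switch on the genes of sterol and fatty acid synthesis, while INSIG proteins hold SCAP back when sterol is plentiful. When oxysterols accumulate, the nuclear receptors LXR-alpha and LXR-beta switch on the exporters ABCA1 and ABCG1. In the infarcted heart, macrophages that engulf dead cells take on their cholesterol and export it.

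A level below is the log2 processed signal minus the 75th percentile of its own array, and a difference is KO minus WT in log2 units. Values are given in the order WT replicate 1, WT replicate 3, KO replicate 3, KO replicate 4. Levels of different genes come from different probes and are not set against each other. All 4 arrays lay on 1 slide, at positions 4, 3, 2 and 1 in that order, so an effect of position cannot be told apart from genotype. S1pr1 itself read 0.27 and 0.86 in WT against -2.82 and -2.40 in KO, a difference of -3.17 (SE 0.39) or 9.02-fold lower, with an adjusted p of 0.741 in limma. Whether its probe lies in the deleted stretch is not given in the sources used here. Probes well above background made up 54.3% on WT replicate 1 and 69.4% to 73.4% on the others. WT replicate 1 also stood apart in its marker levels: all 10 cardiomyocyte markers, well above background on every array, were lowest on it. Their summed linear level was 129.7 and 1072 in WT and 902.1 and 1553 in KO. Endothelial markers, 8 of 8 well above background on every array, summed to 44.97 and 60.22 in WT and to 74.46 and 59.94 in KO. In heart RNA, fewer cells of a type and less RNA per cell cannot be told apart.

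Some of the members share letters in their promoters, shown here because genes of this pathway are known to be switched on by SREBP together with the CCAAT-binding factor NF-Y. The windows below are 60 bases upstream of the start site for the members whose level on WT replicate 1 was at least 0.5 above every other array and whose promoter in the RefSeq table (GRCm38.p6) held a CCAAT box or a sterol regulatory element before the start. Each is written 5′ to 3′ on the gene's strand. Capitals mark matches to the sterol regulatory element TCACNCCAC, the NF-Y box CCAAT or the GC box GGGCGG, on either strand.
Hmgcs1, chr13:119690187-119690246, + strand: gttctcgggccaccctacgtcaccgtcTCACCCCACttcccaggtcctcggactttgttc
Idi1, chr13:8885546-8885605, + strand: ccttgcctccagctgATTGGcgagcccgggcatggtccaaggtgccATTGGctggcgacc
Cyp51, chr5:4104698-4104757, - strand: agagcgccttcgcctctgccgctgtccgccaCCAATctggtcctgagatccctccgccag
Msmo1, chr8:64733601-64733660, - strand: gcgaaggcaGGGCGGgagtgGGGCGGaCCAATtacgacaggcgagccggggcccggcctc
Ebp, chrX:8193535-8193594, - strand: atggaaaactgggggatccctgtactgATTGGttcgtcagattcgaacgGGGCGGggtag
Insig1, chr5:28071169-28071228, + strand: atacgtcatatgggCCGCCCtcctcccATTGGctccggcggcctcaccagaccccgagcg
Srebf2, chr15:82147107-82147166, + strand: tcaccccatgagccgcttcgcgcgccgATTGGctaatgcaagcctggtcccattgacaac
Fasn, chr11:120824574-120824633, - strand: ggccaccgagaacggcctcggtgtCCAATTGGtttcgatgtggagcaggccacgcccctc

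Promoters of 25 of the 32 members were matched. Over the whole window of 250 bases before to 50 after the start, on both strands, a CCAAT box was found for 14 of the 14 sterol synthesis enzymes matched, against 42.5% of the 12637 tested genes with a promoter in the table. Among the LXR and efflux genes 1 of 4, Mylip, had one. The GC box was found for 13 of 14 sterol enzymes, against 61.2%, and the sterol element for 1 of 14, Hmgcs1, against 1.38%. No match of one motif overlapped a match of another in the members' windows, while the 2 CCAAT matches of Fasn overlap each other on opposite strands. The box was not limited to members with their highest level on WT replicate 1: Pmvk, Nsdhl, Lss and Tm7sf2 carry it and were not highest there. A match describes letters in the window and not a bound site.

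No member passed the test of KO against WT. With the threshold at an adjusted p of 0.05, 0 of 22925 features (0%) were called by limma, the smallest adjusted p being 0.659, and the members' adjusted p lay between 0.741 and 0.954. Without adjustment 623 features (2.72%) had a p under 0.05 (547 with the trend and robust options of eBayes), and 0 members did. For a single gene, an exact permutation test (two-sided) in this design cannot reach a p under 0.333. Of the 32 members 22 had a lower mean in KO, against 44.4% of all features, and the median of their differences was -0.21, against 0.08 over all features. KO and WT arrays did not overlap for 12 members (34.3% of all features). In 10 of them, Hmgcs1, Idi1, Fdps, Cyp51, Msmo1, Ebp, Insig1, Abcg1, Scd1 and Scd2, both KO arrays were lower (17.4% of all features), and in Fdft1 and Nr1h2 both were higher (16.9%). The gap between the WT arrays was larger than the difference between genotype means for 25 of the 32 members and for 67.6% of all features. A gap between single arrays varies more than a difference between means, so it is often the larger without any effect. WT replicate 1 was above WT replicate 3 for 24 members (47% of all features) and was the lowest array for 4 (43.9%), namely Fdft1, Hsd17b7, Scap and Nr1h3. Between the arrays numbered 3, KO was below WT for 19 members (59.3%).

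**Figure D1:**
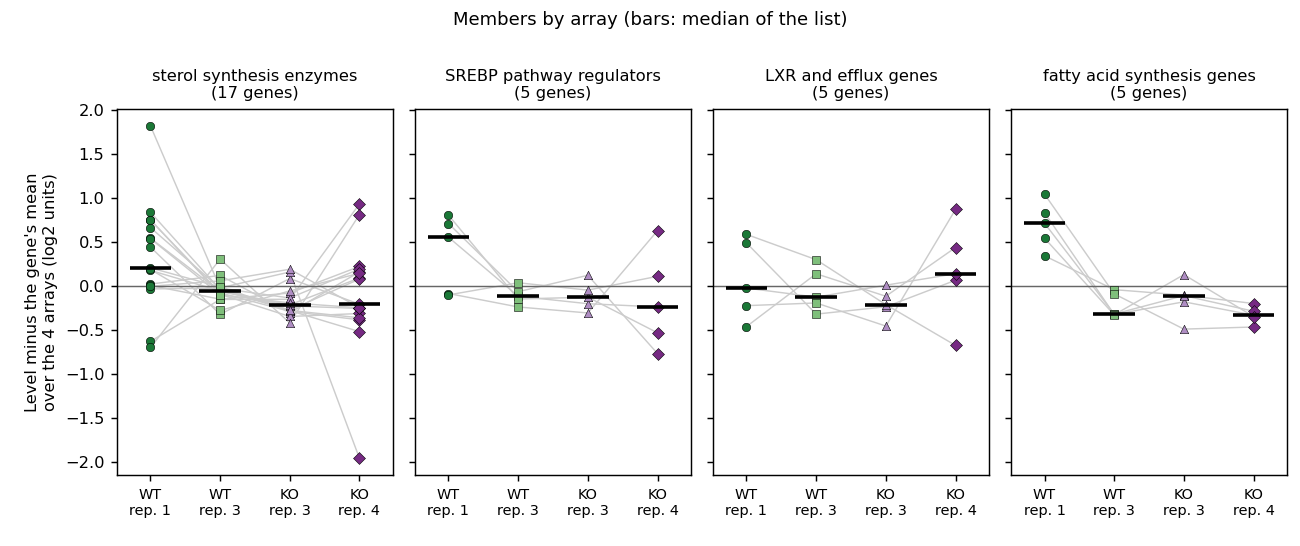
Level of each of the 32 members on each array, as the deviation from that gene's mean over the 4 arrays (log2 units, y axis); points are genes, grey lines join the same gene and black bars are list medians. The 5 fatty acid synthesis genes all sit highest on WT replicate 1 (median 0.71), while of the LXR and efflux genes only Abca1 and Abcg1 do (list median -0.02).

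The upper pathway runs from HMG-CoA to farnesyl diphosphate. Hmgcs1, which condenses acetyl groups into HMG-CoA, read 2.81, 2.21, 2.04 and 2.02. Idi1, the isomerase of the isoprene units, read 1.90, 1.07, 0.86 and 0.76, and Fdps, which joins them into farnesyl diphosphate, 2.16, 1.29, 1.05 and 0.81. In these 3 genes WT replicate 1 stood highest, and the KO arrays lay just below WT replicate 3 without overlap. The differences were -0.48 (SE 0.36) for Hmgcs1, -0.67 (SE 0.41) for Idi1 and -0.80 (SE 0.43) for Fdps, each with an adjusted p of 0.741 in limma.

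The kinases and the decarboxylase between them looked different. Mvk, which phosphorylates mevalonate, read 0.74, 0.51, 0.35 and 0.66, and Pmvk, the next kinase, read 1.27, 1.37, 0.95 and 1.41. The decarboxylase Mvd read -2.61, -3.38, -2.97 and -3.26. Their genotypes overlapped, and the differences were -0.12 (SE 0.33), -0.14 (SE 0.34) and -0.12 (SE 0.41). Intervals were wide even here: for Mvk the 95% interval ran from -1.01 to 0.76, so these arrays cannot tell a difference of that size from none.

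At the branch into sterols the first 2 enzymes differed in sign. Fdft1, squalene synthase, read -1.32, -0.84, -0.84 and 0.24, lowest on WT replicate 1 and highest on KO replicate 4. Sqle, the squalene epoxidase and a rate-limiting step, read 1.43, -0.41, -0.23 and -2.35, the widest range of any member. The order of the arrays in Sqle was the reverse of that in Fdft1, except that WT replicate 3 and KO replicate 3 were nearly level in both. The difference was 0.78 (SE 0.50, 95% interval -0.57 to 2.14) for Fdft1 and -1.80 (SE 0.999, 95% interval -4.49 to 0.89) for Sqle. For Sqle it was -0.88 without WT replicate 1, -2.72 without WT replicate 3, -2.86 without KO replicate 3 and -0.74 without KO replicate 4. For Fdft1 it was 1.32 without KO replicate 3 and 0.24 without KO replicate 4, and 0.36 as the mean of its probes. Within the arrays numbered 3 these were 0.0012 for Fdft1 and 0.18 for Sqle. A second, dimmer Fdft1 probe differed by -0.07. Proliferation markers had the same highest and lowest arrays as Sqle: the summed linear level of the 8 markers, all 8 well above background on every array, was 35.46 and 16.15 in WT and 16.19 and 2.402 in KO. Their part in the Sqle result was not tested.

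From lanosterol onwards, Cyp51, Msmo1 and Ebp had their highest level on WT replicate 1, as Hmgcs1, Idi1 and Fdps did. Cyp51, the lanosterol demethylase, read -0.84, -1.69, -1.94 and -1.91. Msmo1, the sterol C4-methyl oxidase, read 0.68, -0.01, -0.26 and -0.34, and the isomerase Ebp 3.05, 2.41, 2.32 and 2.27. Again WT replicate 1 was highest by a clear step and the other 3 arrays lay close together. Differences between genotypes were -0.66 (SE 0.42), -0.64 (SE 0.38) and -0.44 (SE 0.37). Within the arrays numbered 3 they were nearer to 0, at -0.25, -0.25 and -0.09.

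The remaining sterol enzymes had no common order. Nsdhl, the C4 decarboxylase, read -3.56, -3.50, -3.36 and -3.80, and the reductase Tm7sf2 read -1.64, -1.63, -1.74 and -1.42. Both were nearly level over the 4 arrays, although a second Nsdhl probe differed by -0.77 and a second Tm7sf2 probe by -0.28. Hsd17b7, the ketoreductase of the same step as Nsdhl, read -3.12, -2.12, -2.84 and -1.61, lowest on WT replicate 1, and both its probes differed upwards (0.39 and 0.70). Sc5d, the C5 desaturase, read 0.28, 0.07, -0.20 and 0.16, a difference of -0.20 (SE 0.33). Lss, the cyclase that makes lanosterol, and Dhcr7, the last reductase, were dim at -4.90, -5.05, -4.98 and -4.68 and at -4.85, -5.31, -5.09 and -4.89. WT replicate 1 gives only a bound for both, so it cannot show whether they followed Hmgcs1.

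The 17 sterol enzymes as a list were thus split. Of these 17, 12 had a lower mean in KO and 5 a higher one (44.4% and 55.6% of all features), with a median difference of -0.14, and 11 were highest on WT replicate 1 (36.8% of all features). In 7 of them, Hmgcs1, Idi1, Fdps, Sqle, Cyp51, Msmo1 and Ebp, that array was at least 0.5 above each of the others, which held for 17.3% of all features. This step on WT replicate 1 was described after its values were seen. The list median was -0.11 without WT replicate 1, -0.16 within the arrays numbered 3, -0.30 with WT replicate 3 left out and -0.37 with KO replicate 4 left out.

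**Figure D2:**
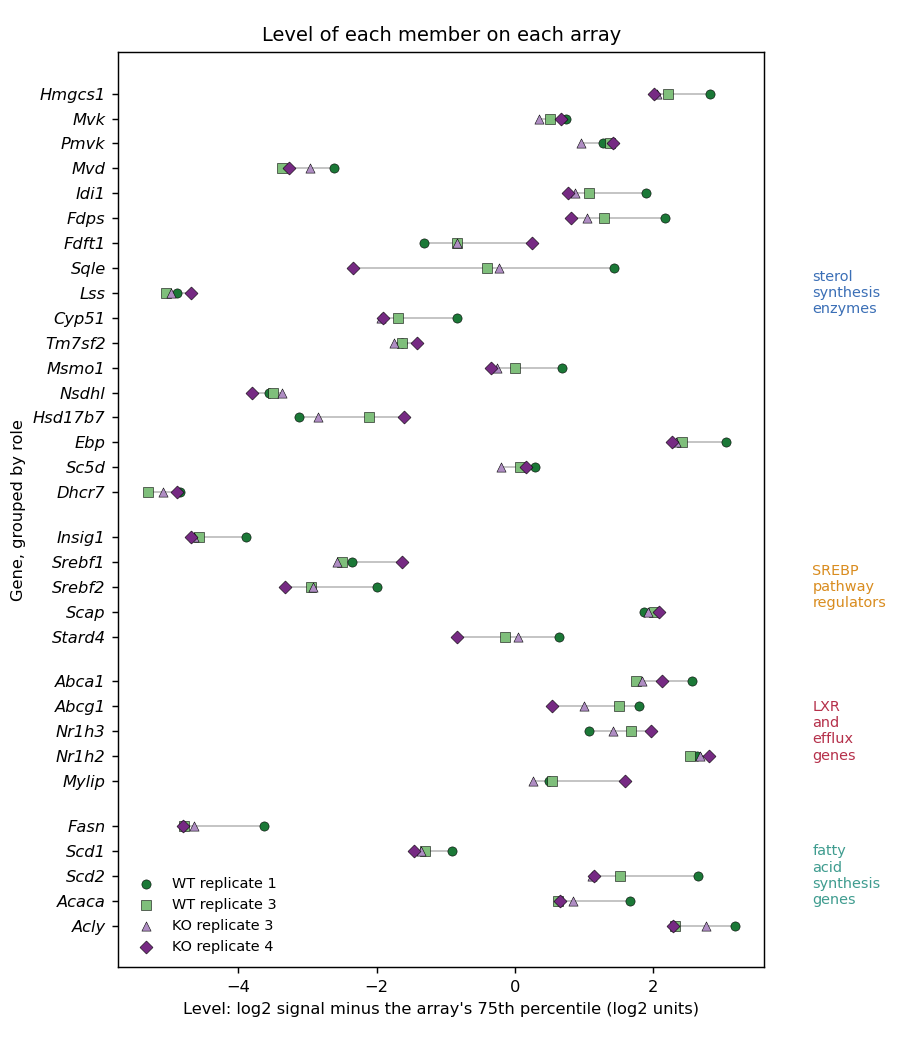
Level of each member on each array (x axis, log2 signal minus the array's 75th percentile), with genes grouped by role on the y axis; each symbol is 1 array and grey lines span the 4. WT replicate 1 lies to the right of the other arrays for Hmgcs1, Idi1, Fdps, Sqle, Cyp51, Msmo1 and Ebp, and Sqle has the widest span, from -2.35 to 1.43.

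The SREBP machinery showed the same step in 3 of its 5 genes. Srebf2, the SREBP that drives sterol genes and is one of its own targets, read -2.00, -2.95, -2.93 and -3.33, a difference of -0.66 (SE 0.46). Its second probe read -2.19, -3.04, -3.47 and -4.48, with no overlap and a larger difference, -1.36. Insig1, the sterol-regulated retention factor and a classical SREBP target, read -3.89, -4.56, -4.65 and -4.69, and Stard4, a cholesterol carrier that SREBP-2 induces, 0.63, -0.14, 0.05 and -0.84. These 3 genes were at least 0.5 higher on WT replicate 1 than on any other array, with differences of -0.44 (SE 0.38) for Insig1 and -0.64 (SE 0.50) for Stard4. Without WT replicate 1 the differences were -0.18 for Srebf2, -0.10 for Insig1 and -0.26 for Stard4, and without WT replicate 3 they were -1.13, -0.77 and -1.03. For Stard4 it was -1.09 without KO replicate 3 and -0.20 without KO replicate 4. Within the arrays numbered 3 it was 0.0212 for Srebf2, -0.0847 for Insig1 and 0.19 for Stard4. With normexp background correction Insig1 differed by -0.0502 and Srebf2 by -0.37. With dim signals raised to a common floor Insig1 differed by -0.33. On the arrays other than WT replicate 1 its levels lay below -4.55, the lowest level read well above background on WT replicate 1. Srebf1, whose products favour fatty acid genes, was instead highest on KO replicate 4, at -2.35, -2.51, -2.57 and -1.64 (difference 0.32, SE 0.44). Scap was the flattest member, at 1.87, 2.01, 1.92 and 2.08 (difference 0.06, 95% interval -0.77 to 0.90, and -0.04 when arrays were scaled to their median). The median difference of the 5 was -0.44 with 3 lower, and was -0.10 without WT replicate 1, -0.20 without KO replicate 4, -0.77 without WT replicate 3 and -0.07 within the arrays numbered 3.

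None of the efflux and LXR genes showed that step of 0.5 on WT replicate 1, although both exporters were highest there. Abca1 lay 0.42 and Abcg1 0.29 above the next array. Abcg1, which exports cholesterol to high-density lipoprotein, read 1.79, 1.503, 0.99 and 0.53. Both KO arrays were below both WT arrays, and its difference, -0.89 (SE 0.35, 95% interval -1.84 to 0.07), was 1.85-fold lower in KO. It had the smallest unadjusted p of all members, 0.0617, but ranked 827 among 22925 features, and its adjusted p was 0.741 in limma. Abca1, which loads cholesterol onto lipid-poor apolipoprotein, read 2.55, 1.75, 1.83 and 2.13 and did not separate the genotypes (difference -0.17, SE 0.42). The 2 exporters thus differed in their order of arrays, with KO replicate 4 lowest for Abcg1 and second highest for Abca1.

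Of the receptors, Nr1h3, which encodes LXR-alpha and is abundant in macrophages, read 1.07, 1.67, 1.41 and 1.97, and its second probe gave the same order of arrays. Nr1h2, which encodes the widely expressed LXR-beta, read 2.64, 2.53, 2.67 and 2.80. Its genotypes did not overlap, but its difference of 0.15 (SE 0.31) was small. Mylip, an LXR-induced ubiquitin ligase that degrades lipoprotein receptors, read 0.50, 0.53, 0.27 and 1.59, so its difference of 0.42 (SE 0.54) rested on KO replicate 4 and was -0.25 without it. The 5 genes had a median difference of 0.15, with 2 lower and 3 higher, which was -0.25 without KO replicate 4 and -0.26 within the arrays numbered 3. Of 10 macrophage markers 9 had a probe, and all 9 were well above background on every array. Their summed linear level was 157.9 and 101.4 in WT and 70.99 and 38.5 in KO, a sum in which Lgals3, which other cells also express, weighs heavily. Without Lgals3 the other 8 summed to 100.8 and 52.84 in WT and to 58.26 and 36.88 in KO, so WT replicate 1 was highest and KO replicate 4 lowest either way, and the order of the arrays numbered 3 turned. On KO replicate 3, 5 of the 9 (Adgre1, Cd14, Csf1r, Itgam and Lyz2) were above WT replicate 3. The others, Lgals3, Aif1, Mpeg1 and Fcgr1, were below it and had the same order of arrays as Abcg1. Aif1 differed by -1.68, Mpeg1 by -2.43 and Fcgr1 by -2.80. The part of macrophage RNA in the Abcg1 values was not tested.

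Set against each other, the sterol enzymes were lower relative to the LXR and efflux genes in KO. The median differences were -0.14 and 0.15, a gap of -0.29, which is a description of lists whose members overlapped widely (-1.80 to 0.78 among sterol enzymes, -0.89 to 0.42 among LXR and efflux genes). Within the arrays numbered 3 the gap had the other sign, 0.10. It was -0.31 without WT replicate 1, -0.40 without WT replicate 3, -0.48 without KO replicate 3 and -0.13 without KO replicate 4. A gap can also be taken on each array, between the list medians of the deviation from each gene's mean over the arrays. The spread of that gap within genotypes was 0.19 (pooled SD over arrays, n = 2 each), which is not a spread of the -0.29 above. On WT replicate 3 these medians were -0.06 for sterol enzymes and -0.13 for LXR and efflux genes. On KO replicate 3 both were -0.21. On this measure the gap was thus not higher in KO within the arrays numbered 3.

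**Figure D3:**
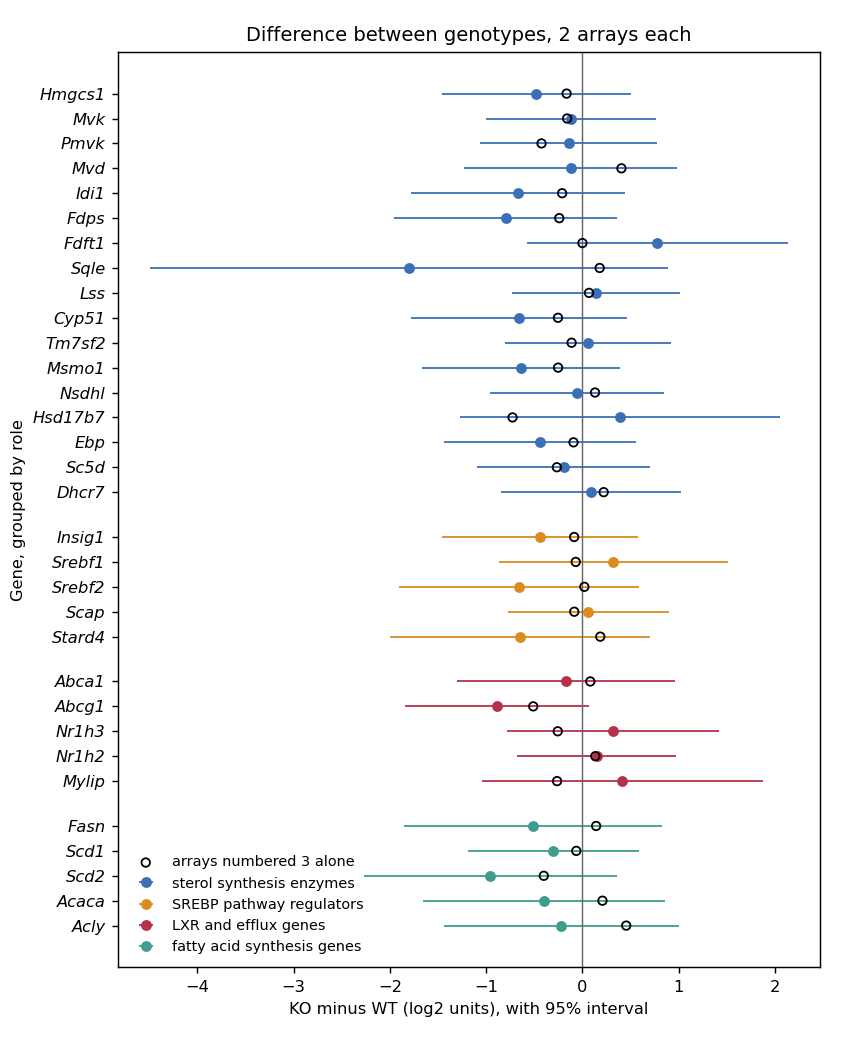
KO minus WT for each member (x axis, log2 units) with its 95% interval from limma, 2 arrays per genotype, genes grouped by role; open circles are KO replicate 3 minus WT replicate 3. Every interval spans 0, and the open circles lie nearer to 0 than the filled ones for Hmgcs1, Idi1, Fdps, Cyp51, Msmo1 and Sqle.

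Fatty acid synthesis genes were highest on WT replicate 1 without exception. Acly, which makes cytosolic acetyl-CoA from citrate, read 3.18, 2.31, 2.77 and 2.29, and Acaca, the carboxylase that commits it to fatty acids, 1.66, 0.62, 0.83 and 0.66. Fasn, fatty acid synthase, was dim, at -3.64, -4.79, -4.65 and -4.80. For these 3 genes KO replicate 3 was second highest and WT replicate 3 was level with KO replicate 4. The desaturases Scd1 and Scd2, close in sequence and able to share signal, read -0.92, -1.30, -1.36 and -1.46 and 2.65, 1.51, 1.11 and 1.14, with both KO arrays below both WT arrays. Scd2 had the largest difference of the 5, -0.95 (SE 0.49, 95% interval -2.27 to 0.36, and -0.39 without WT replicate 1), and Scd1, Fasn, Acaca and Acly differed by -0.30, -0.51, -0.40 and -0.22. For Fasn it was -0.06 with normexp background correction and -0.46 with dim signals raised to a common floor. Its levels on the other arrays lay below -4.55, the lowest level read well above background on WT replicate 1. A dimmer probe of Acly differed by 0.03, and the 2 dimmer ones of Acaca by -1.32 and 0.38, the Acaca ones each above background on only 2 arrays.

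All 5 had a lower mean in KO, with a median difference of -0.40. This rests on WT replicate 1: without it the median was 0.07 with 2 of 5 lower, within the arrays numbered 3 it was 0.14, and without WT replicate 3 it was -0.91. Adipocyte markers were also highest on that array by their median deviation from each gene's mean (2.63). So were proliferation (2.07), smooth muscle (1.42), neutrophil (1.34) and macrophage markers (1.06), but not cardiomyocyte, endothelial or fibroblast markers. The fat hormone Adipoq read 0.91, -4.99, -2.52 and -5.18, the adipsin gene Cfd 3.40, -3.26, -0.46 and -3.19, and the lipid droplet gene Cidec 0.67, -5.96, -3.21 and -6.06. In all 3 KO replicate 3 was second highest, as in Acly, Acaca and Fasn. Of the 8 markers, all with a probe, 7 passed the filter and Lep was well above background on 0 arrays. Their summed linear level, 61.99 and 97.14 in WT and 93.96 and 106.6 in KO, was dominated by Fabp4, which endothelial cells also express and which read 5.57, 6.60, 6.54 and 6.73. The part of fat tissue in the fatty acid synthesis values was not tested.

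**Figure D4:**
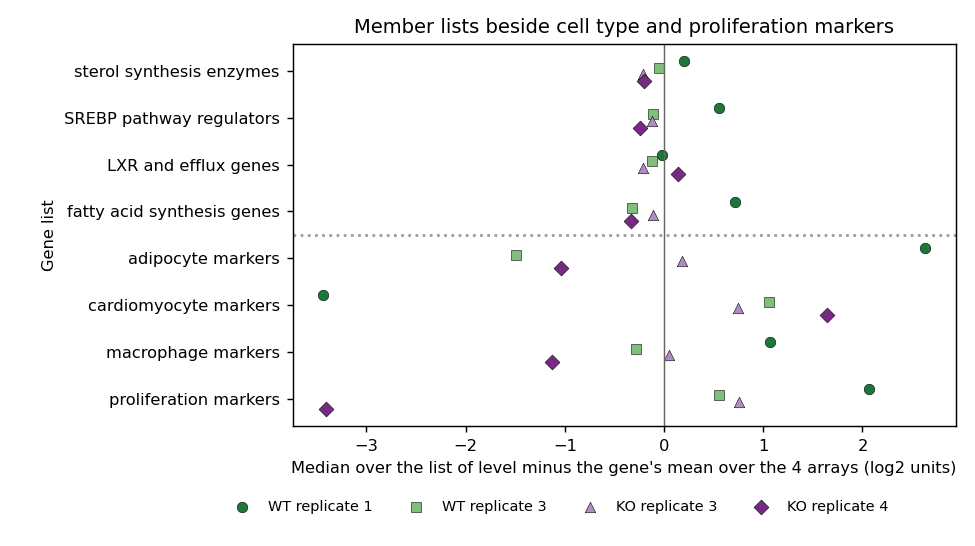
Median, over the genes of a list, of the deviation of the level from each gene's mean over the 4 arrays (x axis, log2 units), for the 4 groups of members (above the dotted line) and for marker lists (below it); each symbol is 1 array. On WT replicate 1 adipocyte markers are at 2.63 and cardiomyocyte markers at -3.44, and fatty acid synthesis genes are at 0.71.

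Other genes of the same pathways were taken from lists of general knowledge and gave 0 calls in either direction in limma. Of 7 tested further genes of sterol synthesis 5 were lower and 2 higher in KO (median -0.12), of 10 in SREBP processing and sterol sensing 7 were lower and 3 higher (-0.38), of 20 in sterol transport, storage and efflux 11 and 9 (-0.17), of 4 that make oxysterols 2 and 2 (-0.02), and of 22 in fatty acid and glyceride synthesis 10 and 12 (0.19). The median over all features was 0.08. In the transport list, both KO arrays were below both WT arrays for 10 of 20 genes, against 17.4% of all features.

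Enzymes that store cholesterol as esters were among those 10, and so was Lipa, which breaks such esters down (difference -0.97, SE 0.45). Nceh1, another ester hydrolase, differed upwards (1.22, SE 0.65). Soat2, which esterifies cholesterol, read -1.24, -2.45, -3.25 and -3.52 (difference -1.54, SE 0.52), and Soat1, the esterifying enzyme of macrophages, -2.78, -3.82, -4.10 and -5.39 (difference -1.45, SE 0.64). Stard5, a sterol carrier, read -0.63, -0.93, -1.37 and -2.13 (difference -0.97, SE 0.41). Soat2, Soat1 and Stard5 had the same order of arrays as Abcg1. Pltp, a phospholipid transfer protein and LXR target, had the reverse order, at -0.24, 0.20, 0.99 and 1.62 (difference 1.32, SE 0.40). Its unadjusted p was 0.0259 in limma and that of Soat2 was 0.0368, each with an adjusted p of 0.741. No other gene of the transport list had an unadjusted p under 0.05. Cyp27a1, which makes an oxysterol ligand of LXR, read -5.90, -4.14, -3.48 and -3.05 and was not well above background on WT replicate 1.

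WT replicate 1 was the highest array for 4 of 7 further sterol synthesis genes, against 36.8% of all features. It was also highest for 7 of 10 in SREBP processing and sterol sensing and for 10 of 22 in fatty acid and glyceride synthesis. Another set of these genes was lowest on that array. Acat1, a mitochondrial thiolase, read 1.12, 4.74, 3.82 and 5.44, Vldlr, the very-low-density lipoprotein receptor, 0.63, 4.43, 3.80 and 4.96, and Insig2, a relative of Insig1 that does not depend on SREBP, 1.31, 2.41, 2.15 and 2.77. Their order of arrays was that of the summed cardiomyocyte markers, and opposite to Insig1 in that WT replicate 1 was lowest. Acss2, which makes acetyl-CoA from acetate, and Gpam, the first enzyme of glyceride synthesis, were lowest there too, at -0.52, 1.80, 1.74 and 2.38 and at -4.05, -2.04, -1.81 and -1.31. The differences of these 5 genes lay between 0.60 (Insig2) and 1.85 (Vldlr) and the part of cardiomyocyte RNA in them was not tested. Fads3, of the fatty acid desaturase family, and the elongase Elovl1 were in contrast lower on both KO arrays, at 3.39, 3.35, 2.76 and 2.16 and at 3.34, 2.56, 2.46 and 1.80.

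**Figure D5:**
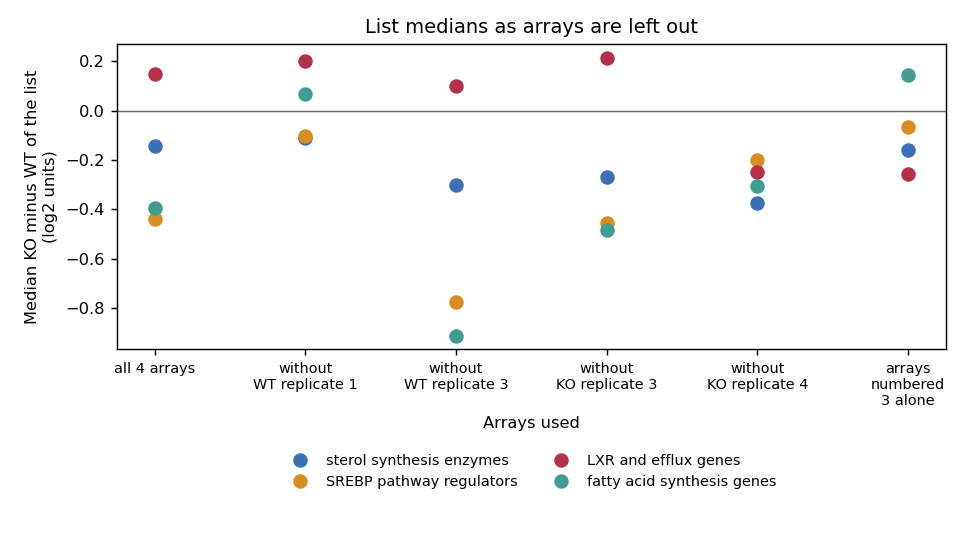
Median KO minus WT of each group of members (y axis, log2 units) with all 4 arrays, with each array left out, and with KO replicate 3 against WT replicate 3 alone (x axis). The fatty acid synthesis median lies between -0.91 and 0.14 and the LXR and efflux median between -0.26 and 0.21 as the arrays used change.

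Across the 16 other settings tried, which include other scalings, filters and leaving out arrays and of which 2 alter only the test, 13 members kept the sign of their difference in every setting that measured them. Lower in KO throughout were Hmgcs1, Idi1, Fdps, Cyp51, Msmo1, Ebp, Sc5d, Insig1, Abcg1, Scd1 and Scd2, and higher throughout were Fdft1 and Nr1h2. All of these members but Sc5d had KO and WT arrays that did not overlap, as did 34.3% of all features. For such genes leaving out arrays cannot turn the sign, so those settings do not test it. The share of all features that kept their sign is not given here. In no setting with a test was a member called. Without WT replicate 1 the difference was -0.18 for Hmgcs1, -0.26 for Idi1, -0.36 for Fdps, -0.24 for Cyp51, -0.29 for Msmo1 and -0.12 for Ebp, in each case nearer to 0 than with that array. For Abcg1 it was -0.74.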

How the data were processed

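Mouse heart RNA was hybridised to 1-colour Agilent arrays, 4 in all and 2 per genotype. The deposited scanner files hold spot intensity values, background-corrected per the file headers by Feature Extraction 11.0.1.1 (9.1 per the submitters' processing notes), and flags. The authors' deposited value table holds log2 values, whose median is 6.106 in every column and whose normalisation is not given in the sources used here; it served as an alternative.

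Here, control and outlier spots were left out, and log2 processed signals minus each array's 75th percentile over spots were averaged by probe. Probes well above background on at least 2 arrays were kept, with the brightest per gene, named through RefSeq accessions (GRCm38.p6). Genotypes were compared with limma 3.58.1 (lmFit, eBayes; R 4.3.3), adjusted by Benjamini-Hochberg over 22925 features at 0.05. Code was tested on simulated data. Lists are described by counts and medians, without tests. Members and lists were chosen with earlier results of these data known. All members are named; of the other pathway lists, up to 4 genes of smallest unadjusted p were eligible. Of these, 3 are counted but not reported by name here, and not every other one is named. Insig2, Lipa and Nceh1 are named although they were not among the 4 of their lists. Array number limits precision.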

Additional observations from a re-analysis of the deposited data

How the results depend on the processing

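No feature was called under any setting with a test, which include an adjusted p under 0.10, and no member's call could therefore change. The number of features with an unadjusted p under 0.05 ranged from 167 without KO replicate 4 to 4339 without WT replicate 3 (384 without WT replicate 1, 1296 without KO replicate 3). No paired analysis was possible because the genotypes share only replicate number 3.

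With 1 array left out in turn (the lone array is assumed to vary like the other genotype), the median difference of the sterol enzymes ranged from -0.37 to -0.11, of the SREBP regulators from -0.77 to -0.10, of the LXR and efflux genes from -0.25 to 0.21, of the fatty acid synthesis genes from -0.91 to 0.0680, and the gap between the sterol and the LXR and efflux medians from -0.48 to -0.13. The arrays numbered 3 alone gave -0.0682 for the SREBP regulators, -0.26 for the LXR and efflux genes, 0.14 for the fatty acid genes and 0.10 for the gap. Normexp on the median signals gave -0.0502 for the SREBP regulators. The cause was not tested.

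Of single members, Tm7sf2 changed sign with median scaling (-0.0425) and with the mean of its probes (-0.11), Nsdhl with normexp (0.0886), Scap with median scaling (-0.0360) and Dhcr7 with quantile scaling (-0.00682), median scaling (-0.0104) and the deposited values (-0.0171). With 1 array left out, 15 members changed sign, with these ranges: Mvk -0.27 to 0.0305, Pmvk -0.37 to 0.0897, Mvd -0.50 to 0.26, Lss -0.00795 to 0.29, Tm7sf2 -0.11 to 0.22, Nsdhl -0.27 to 0.16, Hsd17b7 -0.22 to 1.01, Dhcr7 -0.14 to 0.32, Srebf1 -0.14 to 0.79, Scap -0.0143 to 0.14, Abca1 -0.57 to 0.23, Mylip -0.25 to 1.08, Fasn -1.09 to 0.0680, Acaca -0.91 to 0.12 and Acly -0.65 to 0.22. The filter that asked for signal above background on all 4 arrays leaves 30 members, without Lss and Dhcr7, and dim probes on WT replicate 1 limit those 2 most. The 75th percentile over averaged probes was chosen after seeing the data and changed no sign.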
